A study of Mus musculus with 36 samples.

Results

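A set of 10 genes that move calcium into, out of and around the endoplasmic reticulum (ER) was followed across 36 RNA-seq libraries of mouse embryonic fibroblasts. They were chosen by name: the ER pumps Atp2a2 and Atp2a3, the plasma membrane pumps Atp2b1 and Atp2b4, the inositol trisphosphate (IP3) receptors Itpr1, Itpr2 and Itpr3, the store sensors Stim1 and Stim2, and the entry channel Orai1. These are 10 of the 36856 gene symbols in the table, and all 10 were among the 16065 genes with enough counts to be tested. Atp2a3 was among them only through the treated groups in which it was high.

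The fibroblasts were either wild type (WT) or PERK -/- (Perk-null below), that is, without the ER stress kinase encoded by Eif2ak3. Each genotype received the solvent DMSO, thapsigargin, BtdCPU, halofuginone, BtdCPU with thapsigargin, or halofuginone with thapsigargin, with 3 libraries in each of the 12 groups. BtdCPU is used as an activator of the kinase HRI, and halofuginone, an inhibitor of prolyl-tRNA charging, as an activator of GCN2; both kinases, like PERK, phosphorylate the translation factor eIF2. All groups share the one cell type named in the labels, and the labels give no dose, treatment time, culture passage or batch, nor how many lines of each genotype were used. Nothing in them says that the 3 libraries of a group came from separate cultures, so the p-values below measure only the spread between these libraries, which may be technical.

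The ER holds calcium at a far higher concentration than the cytosol. SERCA pumps, encoded by the Atp2a genes, fill this store at the cost of ATP, and IP3 receptors open to release it when surface receptors signal. STIM proteins span the ER membrane and sense the calcium inside it; when the store empties they gather under the plasma membrane and open ORAI channels, through which calcium enters the cell, and PMCA pumps, encoded by the Atp2b genes, expel calcium to the outside. Thapsigargin blocks SERCA, so the store leaks empty and ER chaperones that need calcium fail, which is why the compound is a standard way to cause ER stress. The encoded ER pump is therefore the direct target of one of the treatments.

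Stim2 and Itpr2 gave the largest fall and, after the ER pump genes, the largest rise with thapsigargin in WT cells, and the 250 bases before their annotated starts are shown because both hold the pieces of an ER stress element. The sequences are from RefSeq on GRCm38.p6, 5′ to 3′ on the strand of the gene. The Stim2 window lies at chr5:53998273-53998522 on the plus strand with 74.8% G or C, and the Itpr2 window at chr6:146502224-146502473 on the minus strand with 74.4%. Capitals mark each CCAAT and CCACG on either strand (ATTGG and CGTGG where read from the other strand).
Stim2: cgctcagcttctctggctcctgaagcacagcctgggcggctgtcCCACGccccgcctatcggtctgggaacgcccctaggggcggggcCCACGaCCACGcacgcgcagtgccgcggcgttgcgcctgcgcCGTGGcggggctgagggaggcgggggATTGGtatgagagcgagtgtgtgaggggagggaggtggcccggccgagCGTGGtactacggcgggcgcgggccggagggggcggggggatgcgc
Itpr2: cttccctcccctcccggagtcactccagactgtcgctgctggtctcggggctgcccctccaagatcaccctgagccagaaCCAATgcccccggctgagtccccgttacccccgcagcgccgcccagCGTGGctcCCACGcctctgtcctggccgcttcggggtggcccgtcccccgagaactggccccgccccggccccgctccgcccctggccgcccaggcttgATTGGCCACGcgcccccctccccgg
In the Itpr2 window ATTGG and CCACG stand directly side by side, 25 and 20 bases before the start, and in the Stim2 window the single ATTGG begins 94 bases before the start. The Orai1 window has CCAAT and CGTGG directly side by side, 66 and 61 bases before the start. Read from the other strand these are CCACG and then ATTGG, the reverse of the order in Itpr2. Orai1 did not pass with thapsigargin in either genotype. Any part of these pieces in the responses was not tested.

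The complete ER stress elements combine these pieces at a fixed spacing: CCAAT, any 9 bases and CCACG for ERSE, and ATTGG, any 1 base and CCACG for ERSE-II. Of the 10 genes, 8 had a window in the table, 9 windows in all because Atp2b1 had 2, and neither complete element was found in any of them on either strand; Atp2a2 and Itpr1 had none. Across 32851 windows of the same length, 0.113% held ERSE and 0.0304% held ERSE-II. TGACGTGG (UPRE) and TGATGCAA (a C/EBP-ATF composite site) were in none of the 9 windows, and in 0.563% and 0.792% of all windows. The short pieces were common: CCAAT was in 33.9% of all windows and in those of Itpr2, Stim2 and Orai1, and CCACG was in 28.3% and in those of Itpr2, Itpr3, Stim2 and Orai1. Both are parts of ERSE and ERSE-II, and the end of UPRE is CCACG read from the other strand. TGGAAA, the core of NFAT sites, was in 18.6% and in 1 of the Atp2b1 windows.

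Library totals ran from 32454257 to 37178107 estimated counts. Eif2ak3 was at 31.1 ± 1.10 CPM (counts scaled to a library of 1000000; SD, n = 3) in WT and 9.95 ± 0.760 in Perk-null cells with DMSO, and lay below WT without overlap in 6 of 6 treatments. The 12 fibroblast markers checked were all detected, at a summed 14430 to 40050 CPM per library. Of 8 skeletal muscle markers, which bear on ER pump genes, 3 passed the filter, the sum was 1.26 to 10.2 CPM, and Myod1, Myf5 and Ckm had 3 counts or fewer in every library; 5 smooth muscle markers summed to 858 to 3992 CPM.

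Per kilobase of exon, Atp2a2 was the most abundant of the 10 genes in WT cells with DMSO, at 87.2 ± 8.36 CPM per kb (SD, n = 3), followed by Itpr3 at 34.8 ± 7.58. Stim2 at 10.4 ± 1.51 and Atp2b1 at 9.30 ± 1.43 lay within 1 SD of each other. Orai1 was at 3.55 ± 0.253, Itpr1 at 2.53 ± 0.391, Stim1 at 2.07 ± 0.363 and Itpr2 at 1.09 ± 0.0651 CPM per kb. Atp2b4, at 0.445 ± 0.0492, and Atp2a3, at 0.0178 ± 0.0187, were the lowest. On this scale, which divides by the union of annotated exons, each family among the 10 genes thus had 1 leading member in every library. Atp2a2 made up at least 99.4% of the sum of Atp2a2 and Atp2a3. Atp2b1 was 85.1% to 98.0% of the sum of Atp2b1 and Atp2b4. Itpr3 was 80.0% to 91.9% of the IP3 receptors and Stim2 66.8% to 91.7% of the store sensors. The pump sums leave out Atp2a1, Atp2b2 and Atp2b3.

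**Figure D1:**
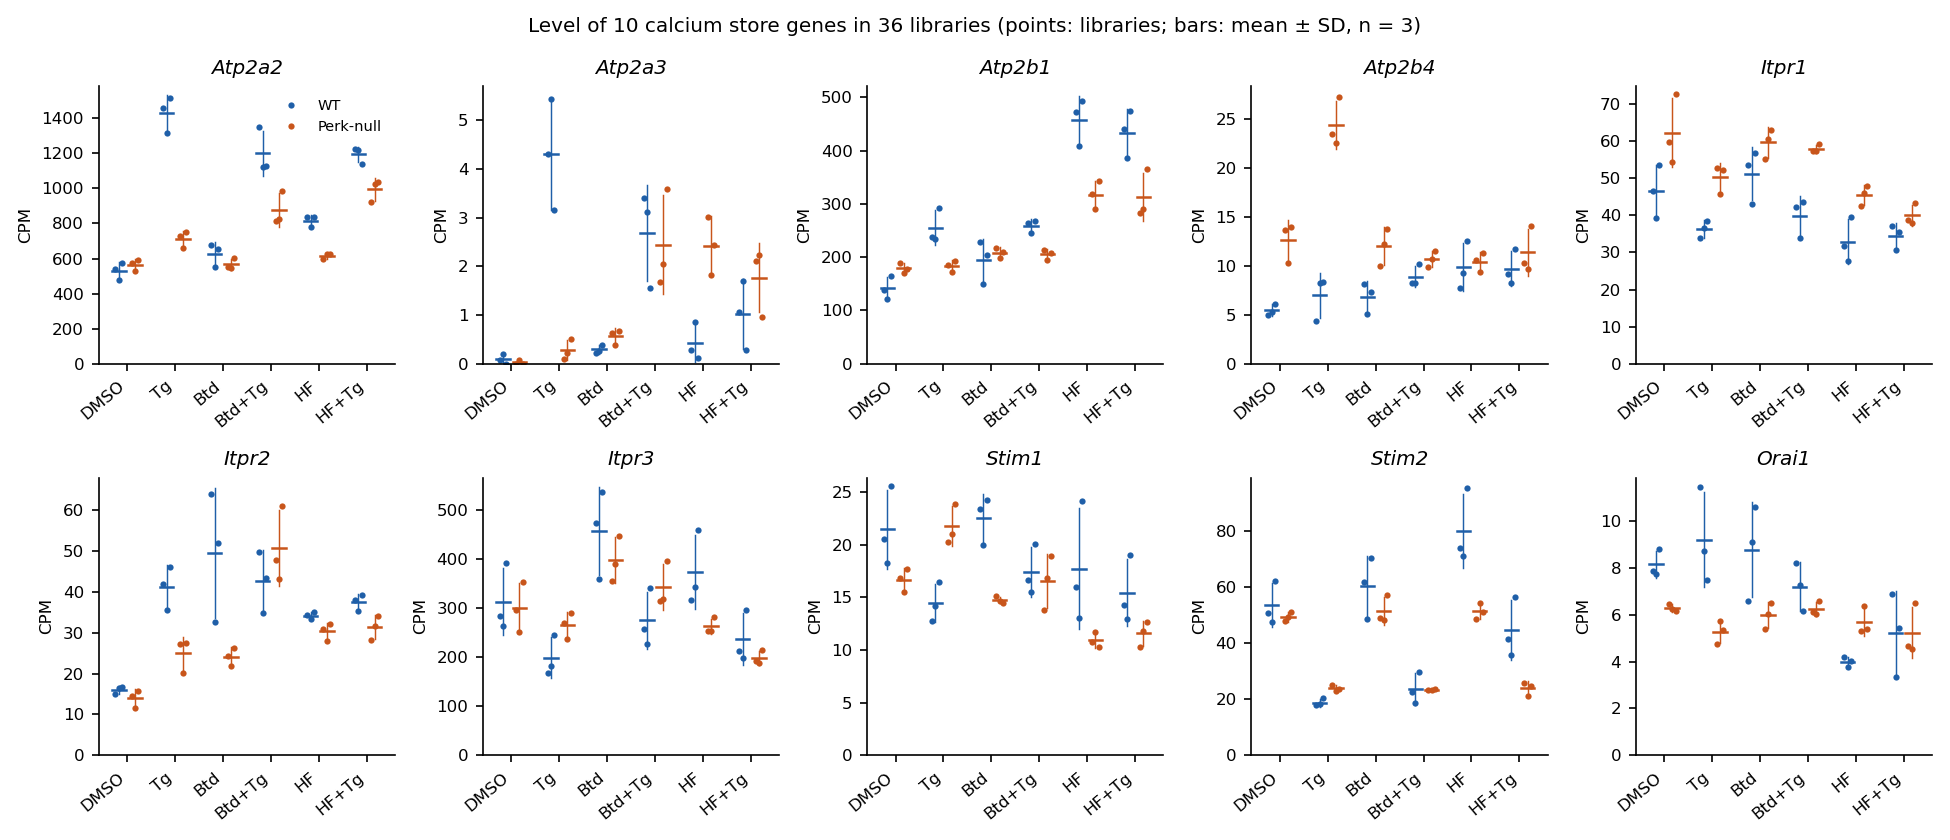
Level in CPM (vertical axes, linear, each starting at 0) of the 10 genes by treatment (Tg, thapsigargin; Btd, BtdCPU; HF, halofuginone); points are libraries, horizontal bars the mean and vertical bars the SD of 3 libraries, WT in blue and Perk-null in orange. Atp2a2 stands highest in WT cells with thapsigargin, at 1318 to 1512 CPM, and Stim2 lowest there, at 17.8 to 20.5 CPM.

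With thapsigargin, 8 of the 10 genes changed in WT cells, 4 of them up (Atp2a2, Atp2a3, Atp2b1 and Itpr2) and 4 down (Itpr1, Itpr3, Stim1 and Stim2), at an edgeR adjusted p under 0.05. Among all tested genes 47.6% passed, 24.9% up and 22.7% down, so a call is not rare in this comparison. Atp2a3, with 0 to 7 counts in each DMSO library, passed the filter only through treated groups. A rise over DMSO in some group was thus a condition of its being tested. This holds for each count of calls against DMSO that includes Atp2a3. In Perk-null cells 5 of 10 changed, 4 up (Atp2a2, Atp2a3, Atp2b4 and Itpr2) and 1 down (Stim2), beside 27.9% of all genes (15.2% up, 12.7% down). Without replicate 3 of the Perk-null thapsigargin group that count was 3. The median log2 change of the 10 was 0.27 for WT and 0.18 for Perk-null, beside 0.015 and 0.046 over all genes. The response differed between the genotypes for Atp2a2, Atp2b1 and Stim1 by the interaction test, 3 of 10 genes (1 higher and 2 lower in Perk-null cells) beside 38.1% of all genes (19.5% and 18.6%). At an unadjusted p under 0.05 in that test there were 5. More also passed with the replicate number as a block or with no filter on low counts, as given at the end. With the block more of all genes passed too. As these are bulk samples, a lower level in fewer cells and less RNA per cell cannot be told apart.

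**Figure D2:**
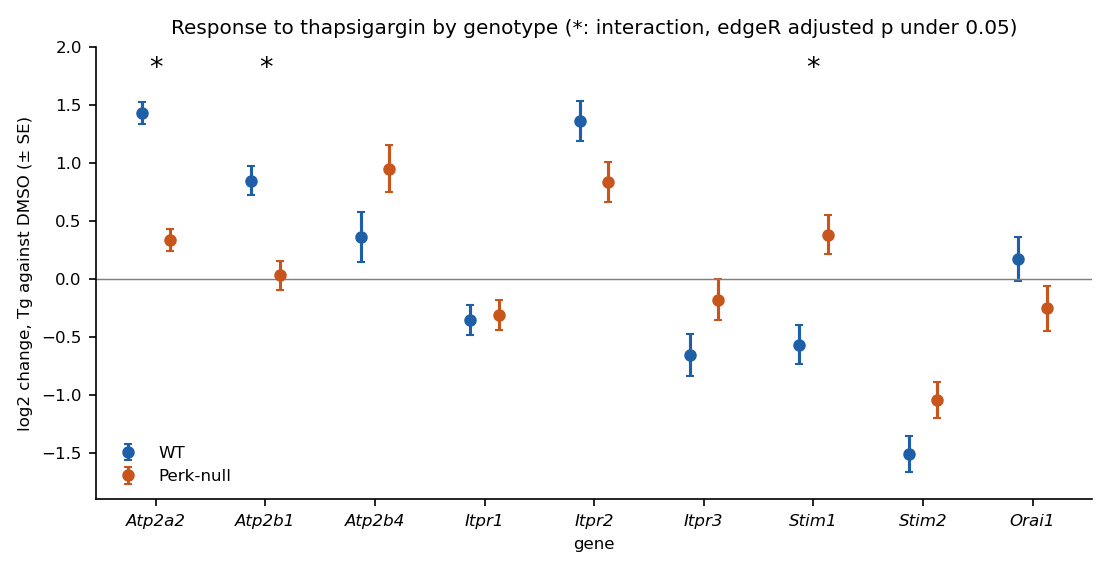
Log2 change with thapsigargin against DMSO (vertical axis) of 9 genes in WT (blue) and Perk-null cells (orange); points are edgeR estimates, bars the SE, and an asterisk marks an interaction at an adjusted p under 0.05. Atp2a3, whose DMSO counts are too few for a useful fold, is left out. The WT and Perk-null values are 1.43 and 0.33 for Atp2a2, and -1.51 and -1.04 for Stim2.

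Atp2a2 encodes SERCA2, the housekeeping ER pump and a target of thapsigargin. It read 540, 475 and 575 CPM in the WT libraries with DMSO and 1460, 1318 and 1512 with thapsigargin. In Perk-null cells it read 572, 532 and 593 with DMSO and 728, 662 and 749 with thapsigargin. The genotypes started at overlapping levels, every thapsigargin library lay above every DMSO library of its genotype, and the WT libraries with thapsigargin stood above all Perk-null libraries of the series, the highest of which read 1036.
The log2 change was 1.43 (SE 0.0956, edgeR adjusted p = 1.64e-13) in WT and 0.33 (SE 0.0938, adjusted p = 0.00714) in Perk-null cells. The difference between these responses was -1.10 (SE 0.133, adjusted p = 8.35e-08). The Perk-null rise did not pass without replicate 3 of the thapsigargin group (0.25, adjusted p = 0.0916) or with no filter on low counts (0.31, adjusted p = 0.0519).

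Halofuginone alone raised Atp2a2 in WT cells, to 816 ± 32.8 CPM (SD, n = 3) from 530 ± 50.8, a log2 change of 0.62 (SE 0.0941, adjusted p = 8e-07). The Perk-null level with halofuginone was 616 ± 16.3 CPM beside 566 ± 31.2 with DMSO, which did not pass, and the responses differed by -0.50 (adjusted p = 0.00392). BtdCPU alone left it at 626 ± 67.5 CPM in WT and 568 ± 31.7 in Perk-null cells, neither passing the test. All these comparisons share the DMSO libraries of their genotype.

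Halofuginone added to thapsigargin moved Atp2a2 up in Perk-null cells and down in WT cells. In Perk-null cells the level was 875 ± 96.0 CPM with BtdCPU and thapsigargin and 993 ± 63.1 with halofuginone and thapsigargin, beside 713 ± 45.3 with thapsigargin alone. Those log2 changes were 0.29 (adjusted p = 0.0136) and 0.48 (adjusted p = 6.91e-05); the first did not pass without replicate 3 of the BtdCPU and thapsigargin group (0.24, adjusted p = 0.0745). In WT cells the level was 1199 ± 129 and 1193 ± 45.1 CPM, below the 1430 ± 100 of thapsigargin alone.
The WT fall was -0.26 with halofuginone added (adjusted p = 0.0231), and it missed the threshold without replicate 1 or 3 of the thapsigargin group or replicate 3 of the combined group (-0.25, -0.22 and -0.23; adjusted p = 0.0664, 0.0894 and 0.0901) and in a fit of only these groups (adjusted p = 0.0948). With BtdCPU added it passed only with the replicate number as a block (-0.25, adjusted p = 0.0125). The interaction passed for both combinations, at 0.55 (adjusted p = 0.00295) and 0.74 (adjusted p = 5.46e-05). In the order of the 12 group levels, from WT with DMSO as the lowest to WT with thapsigargin as the highest, 9 of the 11 neighbouring pairs of groups had overlapping libraries. The other genes had 7 (Atp2b1), 8 (Itpr2 and Stim2), 10 (Atp2b4, Itpr1 and Stim1) or 11 such pairs (Atp2a3, Itpr3 and Orai1), so neighbours in their orders mostly do not differ beyond their spread.

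Atp2a3 encodes SERCA3, a pump best known from blood, platelet and epithelial cells, and it was nearly absent without treatment. The WT libraries had 3, 7 and 0 counts with DMSO and 139, 201 and 114 with thapsigargin; the Perk-null libraries had 0, 3 and 0 with DMSO and 4, 8 and 19 with thapsigargin. Every thapsigargin library was above every DMSO library of its genotype. The Perk-null libraries with thapsigargin had fewer counts than the WT ones. The difference between the 2 responses did not pass edgeR's interaction test (-2.23, SE 1.91, adjusted p = 0.384). The ratio of summed counts per library size was 44.3 in WT cells (95% counting interval 23.9 to 93.1) and 10.3 in Perk-null cells (3.20 to 52.4). These intervals cover counting error only. The adjusted p was 1.47e-07 and 0.0266, and the second did not pass without replicate 3 of the thapsigargin group (0.197) or replicate 1 or 3 of the DMSO group (0.103 and 0.107).

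In Perk-null cells Atp2a3 was highest with halofuginone and with the 2 combinations. Counts were 24, 15 and 25 with BtdCPU, 112, 66 and 89 with halofuginone, 63, 75 and 133 with BtdCPU and thapsigargin, and 80, 82 and 36 with halofuginone and thapsigargin. Over the 3 DMSO counts these are ratios of 21.0 (6.86 to 104), 89.1 (30.2 to 435), 89.5 (30.3 to 437) and 64.8 (21.8 to 317).
In WT cells Atp2a3 was highest with thapsigargin alone. Counts were 7, 9 and 13 with BtdCPU, 9, 29 and 4 with halofuginone, 125, 119 and 59 with BtdCPU and thapsigargin, and 37, 62 and 10 with halofuginone and thapsigargin. Adding halofuginone to thapsigargin lowered Atp2a3 in WT cells (log2 change -2.07, SE 0.519, adjusted p = 0.00149) and raised it in Perk-null cells (2.65, SE 0.606, adjusted p = 0.00044), an interaction of 4.72 (adjusted p = 2.43e-05). BtdCPU added to thapsigargin raised it in Perk-null cells (3.11, SE 0.601, adjusted p = 0.000126), with an interaction of 3.79 (adjusted p = 0.00056).

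Halofuginone alone passed for Atp2a3 in both genotypes (adjusted p = 0.0274 in WT, 4.46e-07 in Perk-null cells), BtdCPU alone in Perk-null cells (adjusted p = 0.00845). The WT halofuginone libraries overlapped DMSO, and that call was lost without replicate 2 of the halofuginone group or replicate 1 or 3 of the DMSO group (adjusted p = 0.364, 0.0695 and 0.113). The Perk-null BtdCPU call was lost without replicate 1 or 3 of the DMSO group (adjusted p = 0.0652 and 0.0579). The halofuginone interaction of 4.22 (adjusted p = 0.0239) was lost without replicate 2 of the WT DMSO group or replicate 1 or 3 of the Perk-null DMSO group (3.16, 3.69 and 3.74; adjusted p = 0.249, 0.0599 and 0.0556). Even at its highest, 4.30 ± 1.13 CPM, Atp2a3 was scarce, and it made up 0.579% or less of the sum of Atp2a2 and Atp2a3 per kb in any library. Among markers of cells known for SERCA3, the blood list summed to 2.97 to 23.0 CPM per library and the epithelial list to 0.114 to 23.7; their part in the Atp2a3 values was not tested.

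Atp2b1 encodes PMCA1, the widely expressed pump of the plasma membrane. WT libraries read 138, 122 and 165 CPM with DMSO, 238, 234 and 293 with thapsigargin and 472, 408 and 493 with halofuginone. Perk-null libraries read 190, 171 and 178 with DMSO, 185, 172 and 194 with thapsigargin and 318, 290 and 342 with halofuginone. Thapsigargin libraries stood clear of DMSO in WT cells and overlapped the DMSO libraries in Perk-null cells, whereas with halofuginone both genotypes were clear of DMSO.
The thapsigargin response was 0.85 in WT cells (SE 0.126, adjusted p = 1.56e-06) and did not pass in Perk-null cells, and the responses differed by -0.82 (SE 0.177, adjusted p = 0.000419). The halofuginone response was 1.69 in WT (SE 0.128, adjusted p = 5.93e-13) and 0.82 in Perk-null cells (SE 0.126, adjusted p = 3.45e-06), with a difference of -0.87 (SE 0.177, adjusted p = 0.000282).

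Halofuginone added to thapsigargin raised Atp2b1 by 0.77 in both genotypes (adjusted p = 8.77e-06 in WT, 4.87e-06 in Perk-null cells), to 434 ± 44.9 and 313 ± 44.9 CPM (SD, n = 3). Neither genotype passed with BtdCPU added, at 259 ± 11.8 CPM beside 255 ± 32.9 in WT and 206 ± 9.43 beside 184 ± 10.8 in Perk-null cells. BtdCPU alone raised it in WT cells by 0.46 (SE 0.125, adjusted p = 0.00824), with overlapping libraries. That call was lost without replicate 1 of the BtdCPU group or replicate 2 of the DMSO group (0.32 and 0.36; adjusted p = 0.118 and 0.0764) and in a fit of only these groups (adjusted p = 0.135).

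Atp2b4 encodes PMCA4, which was scarce in WT cells, between 4.36 and 12.5 CPM in every library. Perk-null libraries read 13.7, 10.2 and 13.9 CPM with DMSO and 23.4, 22.5 and 27.2 with thapsigargin. The WT libraries read 4.97, 5.26 and 6.13 with DMSO and 4.36, 8.29 and 8.30 with thapsigargin. The Perk-null DMSO libraries were above all WT DMSO libraries, and the Perk-null thapsigargin libraries were above every other library of the series. Atp2b4 thus made up 14.1% ± 0.664 of the sum of Atp2b1 and Atp2b4 per kb there, beside 7.995% ± 0.971 with DMSO.
The log2 change with thapsigargin was 0.95 in Perk-null cells (SE 0.204, adjusted p = 0.000542). The difference from WT, 0.59 (SE 0.295, edgeR adjusted p = 0.118), did not pass. Both second compounds lowered it again: BtdCPU by -1.19 (SE 0.205, adjusted p = 2.9e-05) to 10.7 ± 0.792 CPM and halofuginone by -1.10 (SE 0.205, adjusted p = 3.29e-05) to 11.4 ± 2.39 CPM. These falls differed from the WT responses by -1.53 (adjusted p = 0.000261) and -1.57 (adjusted p = 8.84e-05). In WT cells halofuginone raised Atp2b4 by 0.85 (SE 0.214, adjusted p = 0.000786), to 9.84 ± 2.43 CPM, against 10.4 ± 0.989 in Perk-null cells, where it did not pass; the difference was -1.13 (adjusted p = 0.00352). Halofuginone added to thapsigargin in WT cells did not pass (0.47, adjusted p = 0.0666). It passed with the replicate number as a block (0.47, adjusted p = 0.0139) and without replicate 2 of the combined group or replicate 2 or 3 of the thapsigargin group (0.57, 0.60 and 0.61; adjusted p = 0.0448, 0.0451 and 0.0363).

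Itpr2, the most IP3-sensitive of the 3 receptors, rose with every single treatment in both genotypes. WT libraries read 15.0, 16.6 and 16.7 CPM with DMSO, 42.0, 35.6 and 46.1 with thapsigargin, 64.0, 32.5 and 52.0 with BtdCPU and 34.3, 33.3 and 35.1 with halofuginone. Perk-null libraries read 14.5, 11.5 and 15.9 with DMSO, 27.2, 20.2 and 27.5 with thapsigargin, 24.4, 21.8 and 26.3 with BtdCPU and 31.0, 28.1 and 32.2 with halofuginone. No treated library overlapped the DMSO libraries of its genotype.
The log2 changes in WT cells were 1.36 with thapsigargin (SE 0.174, adjusted p = 1.19e-07), 1.62 with BtdCPU (SE 0.175, adjusted p = 3.32e-08) and 1.09 with halofuginone (adjusted p = 1.91e-06). In Perk-null cells they were 0.84 (adjusted p = 0.000381), 0.79 (adjusted p = 0.00543) and 1.12 (adjusted p = 3.97e-06). None of these 3 responses passed the test of the difference between genotypes. That difference was -0.83 for BtdCPU (SE 0.244, edgeR adjusted p = 0.154) and -0.52 for thapsigargin (SE 0.244, adjusted p = 0.0911). Each of these 2 passed in 1 of 12 fits that each left out 1 library. The Perk-null BtdCPU call was lost without replicate 2 of the DMSO group (0.67, adjusted p = 0.0652).

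Of the 10 genes, 3 changed with BtdCPU in WT cells (Itpr2, Atp2b1 and Itpr3, all up), beside 22.2% of all genes (12.9% up and 9.31% down), and 2 in Perk-null cells (Itpr2 and Atp2a3, both up), beside 3.59% (2.55% up, 1.04% down). The WT count was 1 without replicate 1 of the BtdCPU group or replicate 2 of the DMSO group, and the Perk-null count was 1 without any 1 of the DMSO libraries. With BtdCPU added to thapsigargin in Perk-null cells Itpr2 reached its highest level, 48.0, 43.1 and 61.2 CPM, a further change of 1.02 (SE 0.171, adjusted p = 1.78e-05). In WT cells the same addition left it at 42.7 ± 7.57 CPM beside 41.3 ± 5.32, and the genotypes differed by 0.97 (adjusted p = 0.00342).

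Itpr3, the main IP3 receptor gene here, and Itpr1 fell with thapsigargin in WT cells, where Itpr2 rose; neither passed in Perk-null cells. Itpr3 read 285, 264 and 392 CPM in WT libraries with DMSO and 169, 183 and 246 with thapsigargin, clear of each other though each group was spread widely. Its log2 change was -0.65 (SE 0.181, adjusted p = 0.00356). Perk-null cells had 301 ± 50.4 and 266 ± 26.7 CPM, which did not pass. The difference between genotypes, 0.47 (SE 0.255, edgeR adjusted p = 0.147), did not pass either. With BtdCPU alone it was at 458 ± 89.9 CPM in WT cells, a log2 change of 0.55 (SE 0.180, adjusted p = 0.0275) with overlapping libraries. That call was lost without replicate 1 or 3 of the BtdCPU group (0.52 and 0.41; adjusted p = 0.0986 and 0.181) or replicate 1 or 2 of the DMSO group (0.48 and 0.43; adjusted p = 0.112 and 0.150), and in a fit of only these groups (adjusted p = 0.109). With the replicate number as a block it also passed in WT cells when BtdCPU (0.46, adjusted p = 0.000153; also with no filter on low counts, 0.45, adjusted p = 0.0078) or halofuginone (0.24, adjusted p = 0.0075) was added to thapsigargin. The halofuginone interaction over thapsigargin, -0.66 (adjusted p = 0.0442), was lost in 9 of 12 fits that each left out 1 library (-0.69 to -0.47) and with DESeq2's size factors (adjusted p = 0.0513).
In the GENCODE M21 annotation genes on the opposite strand share exon bases with 4 of the 10 genes: Itpr3os shares 233 with Itpr3, Gm44101 and Gm44040 share 181 and 108 with Itpr1, Gm43361 shares 83 with Atp2a2 and Gm2479 shares 7 with Orai1. The counting is not stated to use strand, so reads of such partners cannot be told apart there.

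Itpr1, the receptor best known from neurons and smooth muscle, read 46.5, 39.2 and 53.5 CPM in WT libraries with DMSO and 33.8, 36.7 and 38.6 with thapsigargin, groups that only just separate. The log2 change was -0.35 (SE 0.130, adjusted p = 0.0254). It was lost without replicate 1 of the thapsigargin group (-0.30, adjusted p = 0.0928) or replicate 1 or 3 of the DMSO group (-0.35 and -0.24; adjusted p = 0.0531 and 0.168), and in a fit of only these groups (adjusted p = 0.0566). In Perk-null cells Itpr1 was at 50.2 ± 3.93 CPM with thapsigargin beside 62.3 ± 9.29 with DMSO (adjusted p = 0.0712), and the difference between genotypes did not pass. Halofuginone lowered Itpr1 in both genotypes, by -0.49 in WT (adjusted p = 0.00126, libraries overlapping) and -0.45 in Perk-null cells (adjusted p = 0.00491). The Perk-null call was lost without replicate 3 of the DMSO group (-0.32, adjusted p = 0.0649). Added to thapsigargin in Perk-null cells halofuginone lowered it by -0.33 (adjusted p = 0.0321), to 39.97 ± 2.88 CPM, a call lost without any of 4 libraries (-0.29 to -0.26; replicates 1 and 2 of the combined group and 1 and 3 of the thapsigargin group) and with no filter on low counts (-0.30, adjusted p = 0.0734).

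Stim2, the sensor that responds to small losses of ER calcium, fell with thapsigargin in both genotypes. WT libraries read 51.0, 47.6 and 62.3 CPM with DMSO and 17.8, 18.3 and 20.5 with thapsigargin, and Perk-null libraries 47.8, 49.3 and 51.2 and then 25.1, 23.0 and 23.8. The groups did not overlap in either genotype, and the genotypes started at overlapping levels. The log2 change was -1.51 in WT (SE 0.156, adjusted p = 2.2e-09) and -1.04 in Perk-null cells (SE 0.154, adjusted p = 3.57e-06). The difference between genotypes, 0.46 (SE 0.217, edgeR adjusted p = 0.091), did not pass.
Halofuginone without thapsigargin raised Stim2 in WT cells, to 74.1, 71.1 and 95.3 CPM, by 0.58 (SE 0.151, adjusted p = 0.00117), and the Perk-null level was 51.4 ± 2.81 CPM beside 49.4 ± 1.69, which did not pass. The difference between these responses did not pass either (adjusted p = 0.0554). Added to thapsigargin, halofuginone brought the WT level back to 41.5, 35.9 and 56.6 CPM, a change of 1.24 (SE 0.156, adjusted p = 1.14e-07). In Perk-null cells the same addition left 25.9, 21.1 and 24.9 CPM, which overlap thapsigargin alone and did not pass. The interaction was -1.24 (SE 0.218, adjusted p = 4.11e-05). BtdCPU with thapsigargin left Stim2 at 23.7 ± 5.64 CPM in WT cells, which passed only with the replicate number as a block (0.31, adjusted p = 0.0215), and at 23.4 ± 0.090 in Perk-null cells. In the order of the 12 groups the 6 that received thapsigargin were the 6 lowest.

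Stim1, the sensor that answers to deeper store depletion, read 20.6, 18.3 and 25.6 CPM in WT libraries with DMSO and 12.8, 14.2 and 16.5 with thapsigargin. In Perk-null libraries it read 16.8, 15.5 and 17.8 and then 20.3, 21.1 and 23.9. Thapsigargin libraries lay entirely below DMSO in WT and entirely above it in Perk-null cells. The WT change was -0.57 (SE 0.170, adjusted p = 0.00657; without replicate 3 of the DMSO group -0.42, adjusted p = 0.0604), the Perk-null change did not pass, and the difference between the responses was 0.95 (SE 0.239, adjusted p = 0.00198).
Halofuginone lowered Stim1 in Perk-null cells, by -0.61 alone (SE 0.171, adjusted p = 0.0044) and by -0.91 when added to thapsigargin (SE 0.171, adjusted p = 3.95e-05), to 10.9 ± 0.745 and 11.6 ± 1.2 CPM. The second of these differed from the WT response by -1.0 (SE 0.241, adjusted p = 0.0016). A smaller interaction with BtdCPU over thapsigargin, -0.66 (adjusted p = 0.0477), was lost in 10 of 12 fits that each left out 1 library (-0.71 to -0.50), with DESeq2's size factors (adjusted p = 0.0598) and with no filter (adjusted p = 0.0514).

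**Figure D3:**
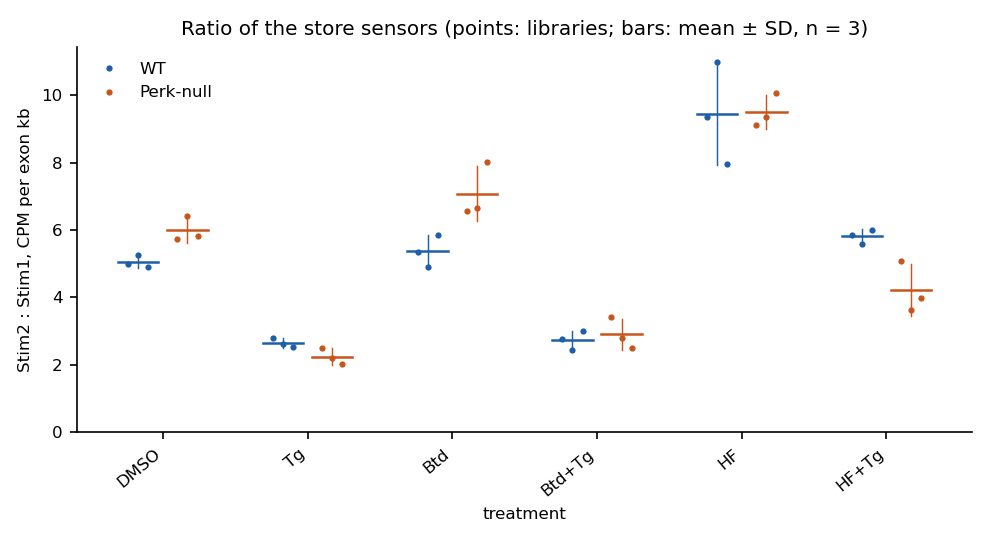
Ratio of the Stim2 level to the Stim1 level, each in CPM per kb of exon (vertical axis, linear from 0), by treatment; points are libraries and bars the mean and SD of 3 libraries. The ratio is 2.64 in WT and 2.24 in Perk-null cells with thapsigargin, and 9.44 and 9.51 with halofuginone.

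The make-up of the sensor RNA also varied between treatments. Sensor protein is not part of these data. The Stim2 to Stim1 ratio per kb was 5.06 ± 0.179 (SD, n = 3) with DMSO and 2.64 ± 0.150 with thapsigargin in WT cells, and 5.99 ± 0.370 and 2.24 ± 0.247 in Perk-null cells. With halofuginone it was 9.44 ± 1.51 and 9.51 ± 0.502. Under the combination of halofuginone with thapsigargin the WT ratio was 5.82 ± 0.208 and the Perk-null ratio 4.23 ± 0.766. These ratios are a description and were not tested. They rest on exon unions of 5133 bases for Stim2 and 10371 for Stim1. In CPM without the lengths, Perk-null libraries with thapsigargin read 25.1, 23.0 and 23.8 for Stim2. The same libraries read 20.3, 21.1 and 23.9 for Stim1, so the lead of Stim2 is small or absent there.

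Orai1, the pore of store-operated entry, read 7.88, 7.76 and 8.82 CPM in WT libraries with DMSO and 11.4, 8.70 and 7.47 with thapsigargin, which overlap. Halofuginone brought it to 4.21, 3.78 and 4.01 CPM, below all DMSO libraries. The log2 change was -1.03 (SE 0.199, adjusted p = 3.55e-05), and added to thapsigargin halofuginone lowered it by -0.82 (SE 0.195, adjusted p = 0.000899). In Perk-null cells every library of every treatment lay between 4.53 and 6.57 CPM and no comparison passed. The responses differed by 0.88 for halofuginone alone (SE 0.278, adjusted p = 0.0133) and by 0.81 for halofuginone over thapsigargin (SE 0.276, adjusted p = 0.0234). The latter was lost without replicate 2 of the WT combined group, replicate 1 of WT thapsigargin, or replicate 3 of the combined or 1 of the thapsigargin group in Perk-null cells (0.57, 0.62, 0.67 and 0.74), and in a fit of only these groups (adjusted p = 0.0633).

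**Figure D4:**
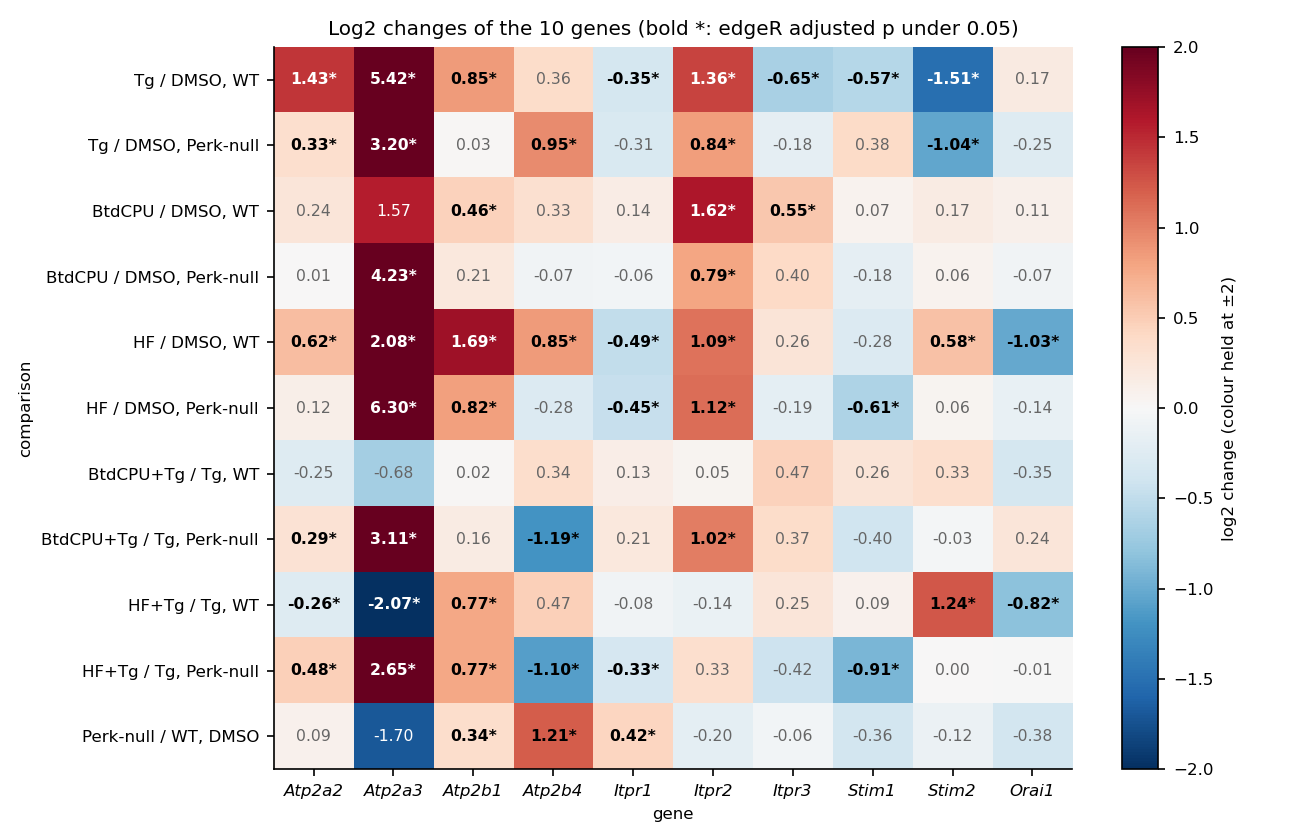
Log2 change of each gene (columns) in 11 comparisons (rows; Tg, thapsigargin; HF, halofuginone), with colour held at 2 in either direction; bold values with an asterisk passed an edgeR adjusted p of 0.05. Itpr2 is bold in all 6 comparisons of a single compound with DMSO, and no gene is bold for BtdCPU added to thapsigargin in WT cells.

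Counted over the 10 genes, halofuginone alone changed 8 in WT cells, 6 up and 2 down, beside 68.2% of all genes (34.7% up, 33.4% down). In Perk-null cells it changed 5, 3 up and 2 down, beside 42.2% (21.2% up, 21.0% down), and the responses differed for 5 genes (2 higher, 3 lower in Perk-null cells) beside 35.0% (17.5% each). Halofuginone added to thapsigargin changed 5 in WT cells (2 up, 3 down; 45.3% of all genes, 22.8% up and 22.5% down) and 6 in Perk-null cells (3 up, 3 down; 52.7%, 25.2% up and 27.5% down), and 7 responses differed between genotypes, 3 higher and 4 lower in Perk-null cells (32.7%; 15.9% and 16.9%).
BtdCPU added to thapsigargin changed 0 of 10 in WT cells by edgeR, with 3 at an unadjusted p under 0.05 and 0 by DESeq2, beside 2.32% of all genes (1.29% up, 1.02% down). Same-numbered libraries of this comparison deviated together, though the titles do not say what the numbers mark. With the number as a block 3 of the 10 passed (Atp2a2, Itpr3 and Stim2). The block also raised the calls among the 16065 tested genes, from 372 to 2079, so these 3 are not to be read against the 2.32%. In Perk-null cells 4 changed, 3 up and 1 down, beside 35.6% of all genes (17.3% up, 18.3% down), and 5 responses differed between genotypes (3 higher, 2 lower in Perk-null cells), beside 20.8% (10.7% and 10.1%). For BtdCPU alone 0 of 10 responses differed by edgeR and 0 by DESeq2, with 1 at an unadjusted p under 0.05, beside 0.199% of all genes (0.0373% higher, 0.162% lower).

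Before any treatment the genotypes differed in 3 of the 10 genes, all higher in Perk-null cells: Atp2b4 by 1.21 (SE 0.213, adjusted p = 1.73e-05), Itpr1 by 0.42 (SE 0.129, adjusted p = 0.00696) and Atp2b1 by 0.34 (SE 0.125, adjusted p = 0.0227). Among all tested genes 49.5% differed (24.6% higher, 24.9% lower). The Itpr1 libraries read 59.7, 54.5 and 72.6 CPM in Perk-null cells, above the 53.5 CPM of the highest WT library. The call was lost without replicate 2 of WT or replicate 3 of Perk-null DMSO (0.32 and 0.29; adjusted p = 0.0659 and 0.0874), and that of Atp2b1 without replicate 1 or 2 of WT or 1 or 3 of Perk-null DMSO (0.25 to 0.34; adjusted p = 0.0501 to 0.144). Without replicate 3 of the Perk-null DMSO group 1 of the 10 genes passed. The summed fibroblast markers differed between the same groups, at 28150 CPM in WT and 17630 in Perk-null cells, as did the neural markers at 8.68 and 27.7 CPM. Skeletal muscle markers summed to 2.281 and 5.725 CPM, blood markers to 4.54 and 8.34 and epithelial markers to 0.254 and 1.63. Smooth muscle markers summed to 2195 and 2683 CPM and endothelial markers to 0.544 and 0.661. The part of any marker list in these differences was not tested.

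The genes around the 10 in calcium handling were read from 8 lists with 97 genes, 85 of them tested. With thapsigargin 32 of the 85 (37.6%) rose and 24 (28.2%) fell in WT cells, where 24.9% of all tested genes rose and 22.7% fell. In Perk-null cells 27 (31.8%) rose and 8 (9.41%) fell, beside 15.2% and 12.7% of all genes. The share of each list below is read against these 4 percentages. The list with the highest median was that of calcium-binding proteins of the ER lumen, which hold the stored calcium and fold proteins: of 14 tested, 9 (64.3%) rose and 3 (21.4%) fell in WT cells (median log2 change 1.11 beside 0.015 over all genes), and 12 (85.7%) rose and 0 fell in Perk-null cells (median 0.97 beside 0.046). Hspa5, the chaperone BiP, rose by 3.85 (adjusted p = 2.74e-18) and 1.97 (adjusted p = 6.97e-12), and Creld2 by 3.73 and 1.81; both responses differed between genotypes (-1.88 and -1.92, adjusted p = 8.37e-09 and 8.08e-09). With halofuginone alone 11 genes of that list (78.6%) fell in WT and 9 (64.3%) in Perk-null cells, beside 33.4% and 21.0% of all genes, with medians of -0.81 and -0.28. The 1 gene of the list that rose was Hspa5 in both genotypes, by 1.41 (adjusted p = 3.68e-10) and 0.83 (adjusted p = 1.55e-05).

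**Figure D5:**
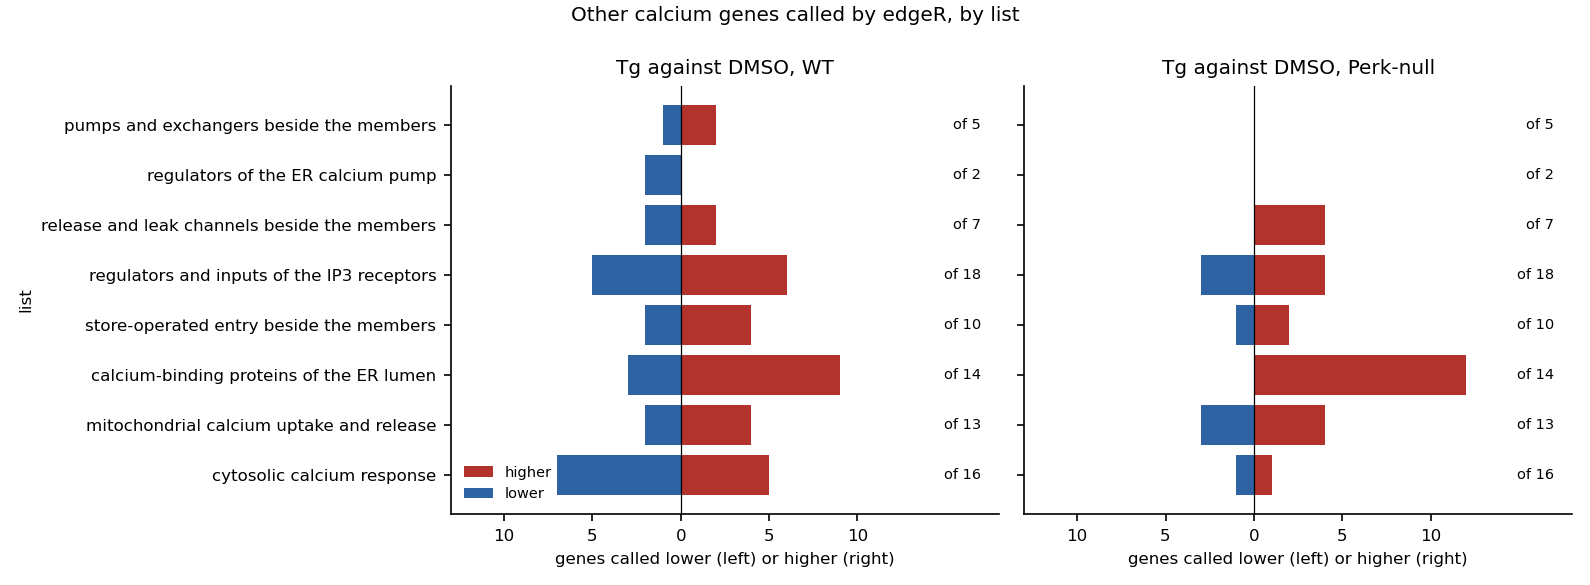
Number of genes called higher (right, red) or lower (left, blue) with thapsigargin against DMSO (horizontal axis) in 8 lists of other calcium genes, in WT (left panel) and Perk-null cells (right panel); the number tested stands at the right of each bar. The list of calcium-binding proteins of the ER lumen has 9 up and 3 down of 14 in WT cells and 12 up and 0 down in Perk-null cells.

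Next to the ER pump, the regulator list had 2 tested genes, the reductase gene Tmx1 and the selenoprotein N gene (listed as Sepn1), and both fell in WT cells (-0.33 and -0.84; adjusted p = 0.00515 and 2.79e-05). Neither passed in Perk-null cells, and both responses differed (0.56 and 1.15, adjusted p = 0.00134 and 5.98e-05). Of 5 other pumps and exchangers tested, 2 rose (40%) and 1 fell (20%) in WT and 0 passed in Perk-null cells; Atp2c1, the Golgi pump, fell by 0.30 in WT cells (adjusted p = 0.00888).
Of 7 other release and leak channels 2 rose and 2 fell in WT cells (28.6% each, near the shares of all genes), and 4 rose (57.1%) and 0 fell in Perk-null cells. Tpcn1, a channel of endosomes and lysosomes, fell by 1.69 in WT and rose by 0.39 in Perk-null cells (interaction 2.08, adjusted p = 5.1e-10). Tmbim6, an ER leak channel, fell by 0.31 and rose by 0.48 (interaction 0.79, adjusted p = 2.1e-05).

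Among 18 regulators and inputs of the IP3 receptors, 6 rose (33.3%) and 5 fell (27.8%) in WT and 4 rose (22.2%) and 3 fell (16.7%) in Perk-null cells, near the shares of all genes. Ero1l, an ER oxidase that acts on IP3 receptors, rose by 2.90 in WT cells (adjusted p = 5.18e-13), with an interaction of -2.42 (adjusted p = 2.39e-08). Bok, which binds IP3 receptors, fell by 2.07 and 0.97. Itprip, an IP3 receptor binding protein, rose by 0.55 in WT and fell by 0.70 in Perk-null cells (interaction -1.25, adjusted p = 1.31e-05).
Of 10 other genes of store-operated entry 4 rose (40%) and 2 fell (20%) in WT, and 2 rose (20%) and 1 fell (10%) in Perk-null cells. Saraf, which turns store-operated entry off, rose by 1.503 in WT cells (adjusted p = 1.19e-13) and 0.98 in Perk-null cells (adjusted p = 3.51e-09), in the same comparisons in which Stim2 fell. Esyt1, a tether of the ER to the plasma membrane, rose by 0.90 and 0.58. Tmem110, which encodes the STIM activator STIMATE, passed in neither genotype, and its responses differed by 0.49 (adjusted p = 0.03).

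In mitochondria, which take up calcium released from the ER, 4 of 13 genes rose (30.8%) and 2 fell (15.4%) in WT and 4 rose (30.8%) and 3 fell (23.1%) in Perk-null cells. Mcu, the uniporter pore, rose by 1.11 in WT cells (adjusted p = 6.05e-09; interaction -1.29, adjusted p = 4.4e-07), and Hspa9, a chaperone that links IP3 receptors to the outer membrane channel, by 1.17 (adjusted p = 1.87e-11; interaction -1.27). Vdac1, that channel, fell by 0.83 in the wild type and by 0.23 in its Perk-null counterpart. Of 16 genes of the cytosolic calcium response, 5 rose (31.2%) and 7 fell (43.8%) in WT cells, and 1 rose and 1 fell in Perk-null cells (6.25% each), where fewer of all genes passed too. Rcan1, a calcineurin inhibitor, rose by 1.56 in WT cells (adjusted p = 8.28e-11), Calm3, a calmodulin gene, fell by 1.13 there, and Nfatc4, a calcineurin target, fell by 1.03 in WT and rose by 1.18 in Perk-null cells (interaction 2.21, adjusted p = 1.8e-07).

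The genes whose group means followed each member most closely over the 12 groups are given as a description, with Pearson's r of log2 CPM and no test; the 12 points share libraries and controls, and 10227 genes were searched (10228 for Atp2a3). For the ER pumps these were Gm30970 (0.984) and Golga5 (0.962) with Atp2a2, and Mtm1 (0.944) and Cryzl1 (0.939) with Atp2a3. For the plasma membrane pumps they were Rela (0.987) and Ino80 (0.984) with Atp2b1, and Faf2 (0.937) and Tmem8 (0.912) with Atp2b4. For the IP3 receptors they were Zbtb9 (0.974) and Ttf2 (0.964) with Itpr1, Fbxl4 and Dip2c (both 0.941) with Itpr2, and Tagln (0.926) and Pip4k2c (0.922) with Itpr3. For store entry they were Slc8b1 (0.959) and Atp2c1 (0.958) with Stim1, Hmga2 (0.963) and Itga6 (0.960) with Stim2, and Gnb1l (0.970) and Chsy1 (0.957) with Orai1.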

How the data were processed

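RNA of 36 mouse embryonic fibroblast samples was sequenced from strand-specific libraries, per the labels' protocols. The authors deposited estimated counts per gene, unscaled, for 36930 entries; a placeholder of 0.025 fills 50.6% of values. The submitters' processing notes name DESeq and the build GRCm39; aligner, counter and annotation are not given in the sources used here. Here, 27 date-named entries (0.206% to 0.278% of counts) were dropped, 39 repeated symbols summed and counts rounded. Genes passing filterByExpr were tested with edgeR 4.0.16 (R 4.3.3): TMM, quasi-likelihood, robust, 12 group means over all libraries, 16 contrasts (5 of them interactions, Perk-null response minus WT), Benjamini-Hochberg over 16065 genes, threshold 0.05. Each SE is the absolute log2 change divided by the square root of the F statistic of its test. It is derived from the test and is a rough guide where counts are few, as for Atp2a3. CPM uses TMM-scaled library sizes. Levels per kb use GENCODE M21 exon lengths, the union over all annotated transcripts of a gene. Code was tested on simulated data. No 2 libraries of a group agreed within sampling noise (chi-square at least 9.06 per degree of freedom).

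Replicate numbers stand in the titles, which do not say what they mark. Same-numbered libraries deviated together (r over 0.1 in every pair) only for BtdCPU with thapsigargin against thapsigargin (0.159, 0.312, 0.337) and halofuginone with thapsigargin against thapsigargin (0.162, 0.201, 0.308) in WT cells, where blocked values are given. Members and lists were chosen with earlier results of these data known. Named were all 10 members, the 2 called genes per list of lowest p in the WT thapsigargin comparison and in its interaction (average log2 CPM at least 2), and the 2 genes most like each member. Alternatives were other scaling, no filter, the block, fits of only the compared groups, DESeq2 1.42.0 and leaving out each library.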

Additional observations from a re-analysis of the deposited data

Results flagged for a closer look

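The response of a member differed between Perk-null and WT cells, by edgeR's interaction test, in 20 cases; each value is the Perk-null log2 response minus the WT one, with its adjusted p. For thapsigargin it was -1.10 for Atp2a2 (8.35e-08), -0.82 for Atp2b1 (0.000419) and 0.95 for Stim1 (0.00198). For halofuginone it was -0.50 for Atp2a2 (0.00392), 4.22 for Atp2a3 (0.0239), -0.87 for Atp2b1 (0.000282), -1.13 for Atp2b4 (0.00352) and 0.88 for Orai1 (0.0133). For BtdCPU added to thapsigargin it was 0.55 for Atp2a2 (0.00295), 3.79 for Atp2a3 (0.00056), -1.53 for Atp2b4 (0.000261), 0.97 for Itpr2 (0.00342) and -0.66 for Stim1 (0.0477). For halofuginone added to thapsigargin it was 0.74 for Atp2a2 (5.46e-05), 4.72 for Atp2a3 (2.43e-05), -1.57 for Atp2b4 (8.84e-05), -0.66 for Itpr3 (0.0442), 0.81 for Orai1 (0.0234), -1.0 for Stim1 (0.0016) and -1.24 for Stim2 (4.11e-05). Atp2a2 is the gene with the most, 4 of the 5 interactions tested. Over all tested genes 38.1% differed for thapsigargin, 0.199% for BtdCPU and 35.0% for halofuginone. The shares were 20.8% for BtdCPU and 32.7% for halofuginone added to thapsigargin. Of 12 fits that each left out 1 library, Stim1 with BtdCPU over thapsigargin was lost in 10. With halofuginone over thapsigargin Itpr3 was lost in 9 and Orai1 in 4, and Atp2a3 with halofuginone alone in 3. With 3 libraries a group, single outlying libraries were not tested.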

How the results depend on the processing

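Of 69 calls on single members, none changed direction under any alternative run. Lost were 2 with DESeq2's size factors in edgeR, 0 with library size alone, 3 with no filter on low counts, 0 with the replicate block, 5 of 67 with only the compared groups, 0 with DESeq2, and 19 in at least 1 fit without a library. Some values that did not pass in the main fit were gained. They were 1 with DESeq2's size factors, 4 with library size alone, 10 with no filter and 28 with the replicate block. Another 13 were gained with only the compared groups, 2 with DESeq2 and 11 in at least 1 fit without a library. The same value can be gained in several of these. A value that did not pass is thus less settled than a call. Library size alone moved the median of all genes by -0.114 in WT halofuginone, and the share of calls that were higher from 58.1% to 45.1% for BtdCPU in WT cells, from 55.9% to 80.7% for BtdCPU added to thapsigargin in WT cells and from 51.6% to 41.4% for its interaction. The causes were not tested.

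The count of members called moved by over 1.5 times in these cases. With the replicate block it was 3 in place of 0 for BtdCPU over thapsigargin in WT, 7 in place of 4 in Perk-null cells, 5 in place of 3 for Perk-null against WT with DMSO, 7 in place of 3 for the thapsigargin interaction and 1 in place of 0 for the BtdCPU interaction. With only the compared groups it was 1 in place of 3 for BtdCPU in WT, 8 in place of 4 for BtdCPU over thapsigargin in Perk-null cells and 5 in place of 3 for Perk-null against WT. With no filter it was 1 in place of 0 for BtdCPU over thapsigargin in WT, 5 in place of 3 for the thapsigargin interaction and 1 in place of 0 for the BtdCPU interaction. The block raised the calls over all genes as well. For BtdCPU over thapsigargin they went from 372 to 2079 in WT and from 5723 to 7304 in Perk-null cells. For Perk-null against WT with DMSO they went from 7949 to 8239. The thapsigargin interaction went from 6124 to 7670 and the BtdCPU interaction from 32 to 587. Calls over all genes with only the compared groups or no filter are not given here. The block turned no other call off. Outside the comparisons named in the processing, not every same-numbered pair passed the cut-off for r. The r values there do not settle whether the numbers mark pairs. They were 0.041, 0.201 and 0.279 for thapsigargin against DMSO in WT cells. For Perk-null against WT with DMSO they were -0.013, 0.141 and 0.132. In the first of these comparisons the block took the calls over all genes from 7647 to 9012.

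Leaving out each library gave 6 to 8 members called for thapsigargin in WT and 3 to 6 in Perk-null cells (3 without replicate 3 of the thapsigargin group), 1 to 4 and 1 to 2 for BtdCPU, 7 to 9 and 4 to 5 for halofuginone, 0 and 3 to 4 for BtdCPU over thapsigargin, 4 to 6 and 5 to 6 for halofuginone over thapsigargin, and 1 to 3 for Perk-null against WT. For the interactions it gave 3 to 4 (thapsigargin), 0 to 1 (BtdCPU), 4 to 6 (halofuginone), 4 to 5 (BtdCPU over thapsigargin) and 5 to 7 (halofuginone over thapsigargin). Depth limits Atp2a3, with 10 counts over the WT and 3 over the Perk-null DMSO libraries.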
